A study of Mus musculus with 6 samples.

Results

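The cholesterol genes described here are 30 genes of sterol synthesis, its control by SREBP, sterol uptake and transport, and sterol efflux, chosen by symbol from the 46095 gene symbols of a count table. All 30 had a row in the table and passed the filter on low counts, which left 16061 genes for testing. RNA was sequenced from cells labelled as nucleus pulposus cells, those of the core of the intervertebral disc. They were taken from mice of 8 weeks of age and grown to passage 2 in medium with serum. The labels give 3 genotypes of Chsy3, which encodes a chondroitin sulfate synthase, with 2 libraries each: wild type, heterozygous (Chsy3 heterozygous) and knockout (Chsy3KO). The sources used here do not state the strain, how Chsy3 was altered or in which cells. They also do not say whether the 2 libraries of a genotype had their own mice or cultures. The p-values therefore rest on the spread among these libraries, which may be technical.

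Cells make cholesterol from acetyl-CoA through the mevalonate pathway, which yields isoprenoid units, then squalene, then lanosterol, and then a series of sterol intermediates. The transcription factor SREBP-2 raises the genes of this pathway. When sterol in the endoplasmic reticulum is plentiful, INSIG proteins hold the SREBP escort protein SCAP there, and SREBP is not processed. Cholesterol taken up in lipoproteins leaves the lysosome through NPC1 and NPC2. In excess, oxysterols activate the nuclear receptor LXR, which raises the pumps ABCA1 and ABCG1 that pass cholesterol to lipoproteins outside the cell, and raises MYLIP, a ubiquitin ligase that lowers lipoprotein receptors. In fibroblasts and macrophages these arms set how much cholesterol a cell holds.

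The libraries held 29622117 to 33899611 counts, and levels below are CPM, counts scaled to library size with TMM factors of 0.974 to 1.02. Chsy3 lay at 8.35 and 8.36 CPM in wild type, 5.79 and 6.20 in heterozygous, and 3.58 and 2.23 in knockout. All libraries are labelled male, yet 4 Y-linked genes (Ddx3y, Uty, Kdm5d, Eif2s3y) had 0 counts in both heterozygous libraries and reads in the other 4, and Xist had reads in all 6. Every comparison with heterozygous therefore joins genotype with this difference, and the comparison of knockout with wild type was also fitted without the heterozygous libraries. In that comparison 2 of these 5 genes were called higher and 0 lower (40% and 0%, beside 19.2% and 18.9% of all tested genes), at log2 -0.0145 to 0.378. The 5 genes summed to 724 and 713 CPM in wild type, 1080 and 1072 in heterozygous (all from Xist), and 721 and 730 in knockout. Xist differed by log2 0.708 in heterozygous against wild type and by -0.723 in knockout against heterozygous. Its level was thus high also in the 4 libraries with Y-linked reads, which bears on knockout against wild type too. Whether a library held RNA of both sexes was not tested. Of 13 nucleus pulposus and notochord markers, T, Shh and Noto had 0 counts in all libraries and Acan had 8 counts in a single wild-type library and 0 elsewhere. Krt8 and Krt18 stayed under 0.25 CPM. The other 7 passed the filter, among them Sox9 (15.3 to 58.3 CPM over the libraries), Foxf1 (17.7 to 37.2), Col2a1 (5.13 to 23.0), Krt19 (0.409 to 16.6) and Cd24a (6.38 to 13.6). These markers also differed between genotypes. Mean CPM in wild type, heterozygous and knockout was 15.75, 0.759 and 2.68 for Krt19. It was 22.8, 5.65 and 21.3 for Col2a1, and 16.0, 57.5 and 22.7 for Sox9. Of the 7, 1 was higher and 3 lower in knockout against wild type, and 3 were higher and 3 lower in heterozygous. These are 14.3% and 42.9%, and 42.9% and 42.9%, beside 19.2% and 18.9%, and 19.2% and 19.7%, of all tested genes. Car3 and Car12 had at most 4.34 and 2.28 CPM in a library. The 13 markers summed to between 76.7 and 114 CPM over the libraries. The lists of macrophage and fibroblast markers, given below, summed to at least 15535 and 23480 CPM. The markers thus gave weak backing to the label, and the identity of the cells was not tested. Summed markers of macrophages lay between 15535 and 15854 CPM in wild type, 18407 and 18521 in heterozygous, and 17816 and 17989 in knockout. The single genes moved unevenly. Mean CPM in wild type, heterozygous and knockout was 7211, 8845 and 7025 for Lyz2, and 751, 1853 and 1823 for Mrc1. Cx3cr1 fell, at 139, 32.6 and 29.3.

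Knockout cells had more mRNA of many sterol synthesis enzymes and of lysosomal export proteins than wild type, and less of the efflux pumps. Of the 30 genes, 14 were higher and 5 lower (46.7% and 16.7%), by edgeR's quasi-likelihood test with an adjusted p under 0.05. Over all tested genes the test called 19.2% higher and 18.9% lower (38.0% in either direction). The median log2 fold change of the 30 genes was 0.17, against -0.00309 for all tested genes. The fit without heterozygous libraries also called 14 and 5. The libraries of knockout and wild type did not overlap for 25 of the 30 genes, beside 66.6% of all genes.

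In heterozygous cells fewer of these genes passed the test against wild type. It called 8 of 30 higher and 5 lower (26.7% and 16.7%), with a background of 19.2% higher and 19.7% lower (38.9% in either direction). The median log2 fold change was 0.02. In knockout against heterozygous, 11 were higher and 1 lower (36.7% and 3.33%), with a background of 19.1% higher and 17.9% lower (37.1% in either direction), and the median was 0.11. The comparisons share libraries and are not independent of each other. Mvd, Lss, Dhcr7, Insig1 and Npc2 were higher in all 3 comparisons, that is, lowest in wild type and highest in knockout. The heterozygous calls of Lss and Insig1 held under all 13 alternatives, while those of Mvd, Dhcr7 and Npc2 ended under at least 1, as given with each gene.

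**Figure D1:**
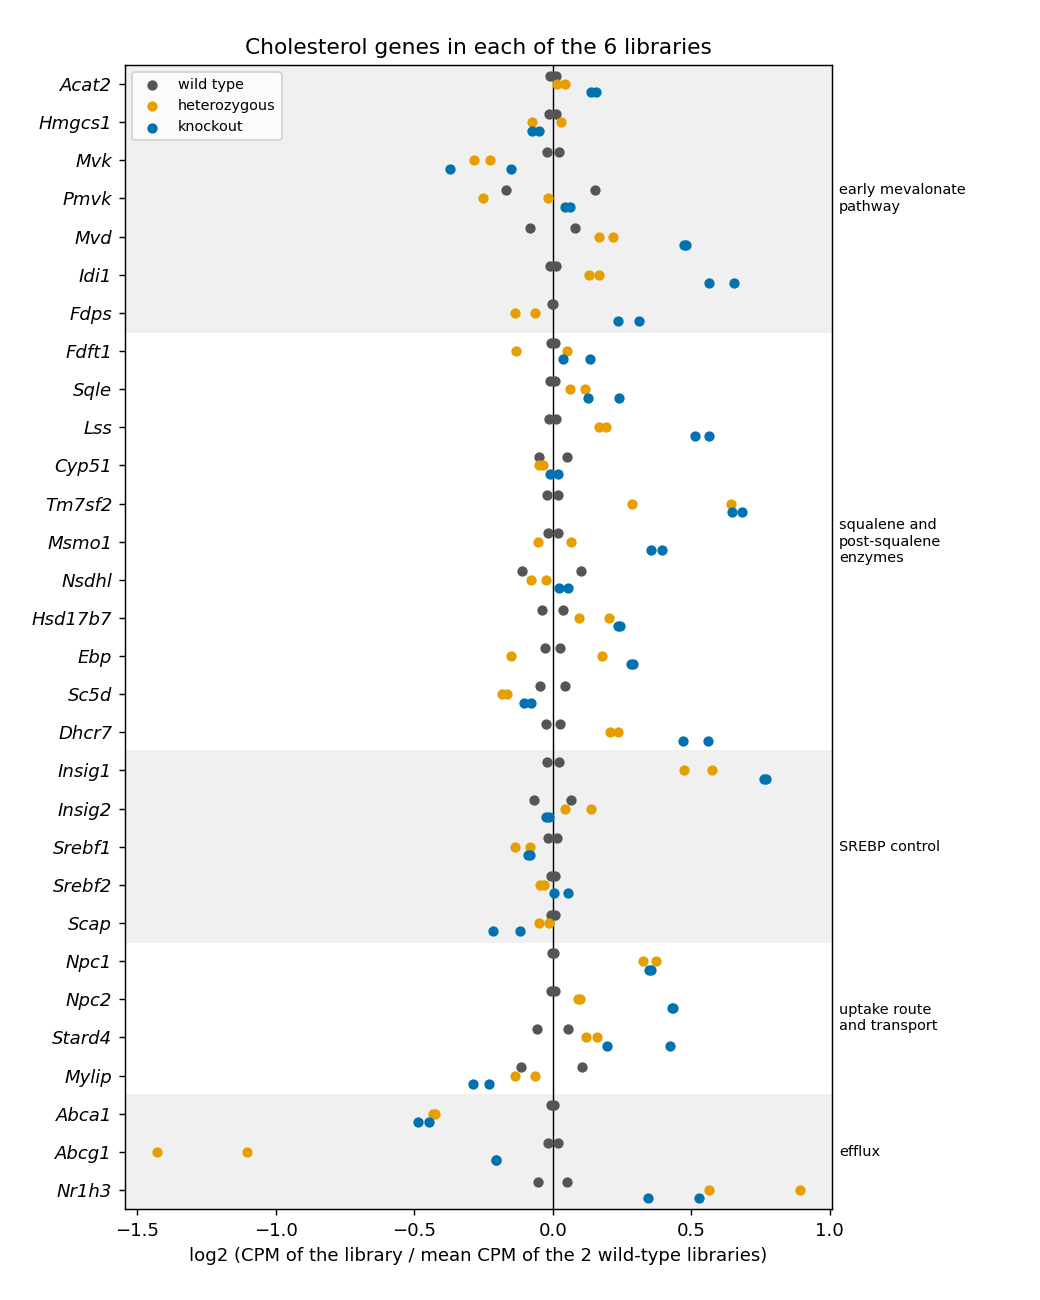
Each point is a library, placed by the log2 ratio of its CPM to the mean CPM of the 2 wild-type libraries, for each of the 30 genes grouped by role (shaded bands). For Insig1 and Lss the knockout libraries lie to the right of the other libraries of the same gene, Abca1 lies to the left in both mutant genotypes, and the heterozygous libraries of Abcg1 lie farther left than any other points.

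The early mevalonate enzymes went in different directions. In knockout against wild type 3 of 7 were higher (Mvd, Idi1, Fdps), 1 was lower (Mvk), and 3 did not pass the test, that is 42.9% higher and 14.3% lower, beside 19.2% and 18.9% of all tested genes. Hmgcs1, which makes HMG-CoA and is a classic SREBP-2 target, lay at 179 and 176 CPM in wild type, 168 and 181 in heterozygous, and 169 and 172 in knockout. Its difference between knockout and wild type was -0.06 ± 0.04 log2 (SE; edgeR, adjusted p = 0.206). Acat2, the thiolase of the first step, lay at 31.9 and 31.4 CPM in wild type and 35.3 and 34.9 in knockout and did not pass either (log2 0.15 ± 0.08, adjusted p = 0.121). A neighbouring, closely related gene, Acat3, had at most 2.94 CPM in a library.

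Neither kinase of the pathway passed the test as higher. Mvk, which phosphorylates mevalonate, had 36.4 and 37.5 CPM in wild type, 31.6 and 30.3 in heterozygous, and 28.6 and 33.2 in knockout. Both mutant genotypes lay below both wild-type libraries. The fall was -0.26 ± 0.08 log2 in knockout (SE; edgeR, adjusted p = 0.00811) and -0.25 ± 0.08 in heterozygous (adjusted p = 0.00917). Without knockout library 1 the knockout value was -0.15 and no longer passed (adjusted p = 0.23). The heterozygous value was -0.23 without wild-type library 2 and -0.23 without heterozygous library 2, with adjusted p of 0.0536 and 0.073. Pmvk, the next kinase, ranged from 20.3 to 26.9 CPM, and both mutant genotypes overlapped wild type. Knockout (25.3 and 24.9 CPM) lay above heterozygous (23.9 and 20.3). Pmvk passed no comparison in the fit of all 6 libraries with TMM factors. It passed in heterozygous against wild type without wild-type library 1 (log2 -0.28, adjusted p = 0.0432) and in knockout against heterozygous with library totals alone (0.25, adjusted p = 0.0439).

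The enzymes of the 3 steps that follow the kinases were higher in knockout. Mvd, the decarboxylase that forms isopentenyl diphosphate, had 32.1 and 36.0 CPM in wild type, 39.5 and 38.2 in heterozygous and 47.5 and 47.3 in knockout. The 3 genotypes did not overlap, and knockout exceeded wild type 1.39-fold (log2 0.48 ± 0.07, SE; edgeR, adjusted p = 3.67e-07). Its smaller rise in heterozygous was 0.19 ± 0.07 log2 (adjusted p = 0.0329). That value was 0.11 without wild-type library 1, 0.17 without heterozygous library 1 and 0.21 without heterozygous library 2, with adjusted p of 0.371, 0.138 and 0.0601. Idi1, the isomerase, lay at 8.85 and 8.71 CPM in wild type, 9.61 and 9.84 in heterozygous and 13.0 and 13.8 in knockout. Knockout stood apart from both other genotypes, 1.53-fold above wild type (adjusted p = 0.000233) and 1.38-fold above heterozygous (adjusted p = 0.00506; log2 0.42 with adjusted p = 0.0566 without knockout library 2). Fdps, which makes farnesyl diphosphate, had 93.3 and 93.5 CPM in wild type, 89.3 and 85.0 in heterozygous and 109.9 and 116 in knockout. It rose in knockout (log2 0.27 ± 0.05 against wild type, adjusted p = 5.02e-06; 0.38 ± 0.05 against heterozygous, adjusted p = 1.33e-08), while heterozygous was not called against wild type (log2 -0.10 ± 0.05, adjusted p = 0.0957; -0.14 and 0.0161 with library totals alone).

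Of the 11 enzymes that make and process squalene and the sterols after it, 7 were higher in knockout than in wild type and 0 lower (Sqle, Lss, Tm7sf2, Msmo1, Hsd17b7, Ebp, Dhcr7), or 63.6% and 0%, beside 19.2% and 18.9% of all tested genes. Their summed level was 750 and 725 CPM in wild type, 737 and 760 in heterozygous, and 856 and 831 in knockout, so that only knockout stood clear of the other libraries. In heterozygous against wild type 3 were higher (Lss, Tm7sf2, Dhcr7) and 1 lower (Sc5d), or 27.3% and 9.09%, beside 19.2% and 19.7%. In knockout against heterozygous 4 were higher (Lss, Msmo1, Ebp, Dhcr7) and 0 lower, or 36.4% and 0%, beside 19.1% and 17.9%. All 11 log2 fold changes were above 0 there, beside 51.5% of all tested genes, but 7 were not called and the smallest was 0.047.

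Lss, which closes squalene epoxide into lanosterol, had 63.5 and 62.4 CPM in wild type, 72.03 and 70.8 in heterozygous and 93.1 and 89.9 in knockout. The genotypes were clearly separated, and knockout was 1.45-fold above wild type (log2 0.54 ± 0.05, SE; edgeR, adjusted p = 1.14e-11) and 1.28-fold above heterozygous (adjusted p = 2.97e-07). Heterozygous was 1.13-fold above wild type (adjusted p = 0.00579). Dhcr7, the reductase that converts the vitamin D precursor into cholesterol, had the same order, with 34.4 and 33.3, 39.1 and 39.9, and 49.9 and 47.0 CPM. Its rise was 1.43-fold in knockout (adjusted p = 4.12e-08) and 1.17-fold in heterozygous (adjusted p = 0.0107). Without wild-type library 2 or heterozygous library 2 this log2 value was 0.20 in both fits, against 0.22, with adjusted p of 0.0754 and 0.0661. Msmo1, the methyl sterol oxidase, had 101 and 104 CPM in wild type, 98.9 and 107 in heterozygous and 135 and 131 in knockout. Knockout stood apart from both other genotypes. Its difference was 0.38 ± 0.05 log2 from wild type (adjusted p = 2.92e-09) and 0.37 ± 0.05 from heterozygous (adjusted p = 8.14e-09).

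The other called sterol enzymes moved less or at lower counts. Sqle, the squalene epoxidase that limits flux into sterols, had 103 and 102 CPM in wild type, 111 and 107 in heterozygous and 121 and 112 in knockout (log2 0.18 ± 0.05 in knockout against wild type; edgeR, adjusted p = 0.00102). Without knockout library 1 the value was 0.13 (adjusted p = 0.0712). Hsd17b7, a ketosteroid reductase, had 47.4 and 45.0 CPM in wild type, 49.3 and 53.2 in heterozygous, and 54.4 and 54.6 in knockout (log2 0.24 ± 0.06 in knockout against wild type, adjusted p = 0.00216). Heterozygous was not called against wild type (log2 0.15 ± 0.06, adjusted p = 0.0586). It passed with RLE factors (0.16, adjusted p = 0.0441) and the stricter filter (0.15, adjusted p = 0.0499), and the value was 0.21 without heterozygous library 1. Ebp, the sterol isomerase on the X chromosome, had 26.0 and 27.0 CPM in wild type, 23.9 and 29.9 in heterozygous, and 32.4 and 32.2 in knockout (log2 0.29 ± 0.09 against wild type, adjusted p = 0.00803). The heterozygous libraries of Ebp lay on either side of wild type, and its call against heterozygous (log2 0.26, adjusted p = 0.0171) ended without heterozygous library 1 (0.10, adjusted p = 0.465). It also missed the threshold without knockout library 1 or 2, at 0.26 and 0.27 (adjusted p = 0.0769 and 0.0688). Tm7sf2, a sterol reductase, had 7.14 and 6.95 CPM in wild type, 10.99 and 8.59 in heterozygous and 11.3 and 11.02 in knockout. Both mutant genotypes were above wild type (adjusted p = 0.000318 in knockout; 0.0112 in heterozygous, where log2 0.47 became 0.29 with adjusted p = 0.237 without heterozygous library 1). In the GENCODE annotation Tm7sf2 shares 532 exon bases with Vps51, a gene on the same strand that also rose in knockout (log2 0.33 ± 0.08), so reads of the pair may have been shared in counting.

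The remaining sterol enzymes were not called higher in the fit of all 6 libraries with TMM factors. Cyp51, the lanosterol demethylase, had 141 and 131 CPM in wild type, 131 and 133 in heterozygous, and 138 and 135 in knockout, and passed no comparison except knockout against heterozygous with library totals alone (log2 0.11, adjusted p = 0.031). Nsdhl, the other X-linked enzyme of the series, lay between 41.0 and 47.5 CPM over all 6 libraries and passed none. Sc5d, the desaturase before Dhcr7, had 105 and 99.0 CPM in wild type, 91.2 and 90.1 in heterozygous and 95.1 and 96.7 in knockout. It fell in heterozygous (log2 -0.17 ± 0.05, SE; edgeR, adjusted p = 0.00304), with -0.13 and an adjusted p of 0.0991 without wild-type library 1, and its value in knockout (log2 -0.09 ± 0.05) did not pass (adjusted p = 0.129). Fdft1, the squalene synthase, had 73.1 and 74.0 CPM in wild type, 67.1 and 76.3 in heterozygous and 80.8 and 75.5 in knockout, and passed none. Knockout against heterozygous passed with library totals alone (log2 0.19, adjusted p = 0.00807) and without heterozygous library 2 (0.22, adjusted p = 0.00943). It shares 774 exon bases, on the opposite strand, with the lysosomal protease gene Ctsb, which had 1071131 counts in all libraries together against 14597 for Fdft1, and Ctsb rose in knockout (log2 0.65 ± 0.02). The sources used here do not say whether the counting used strand, so the level of Fdft1 is uncertain.

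**Figure D2:**
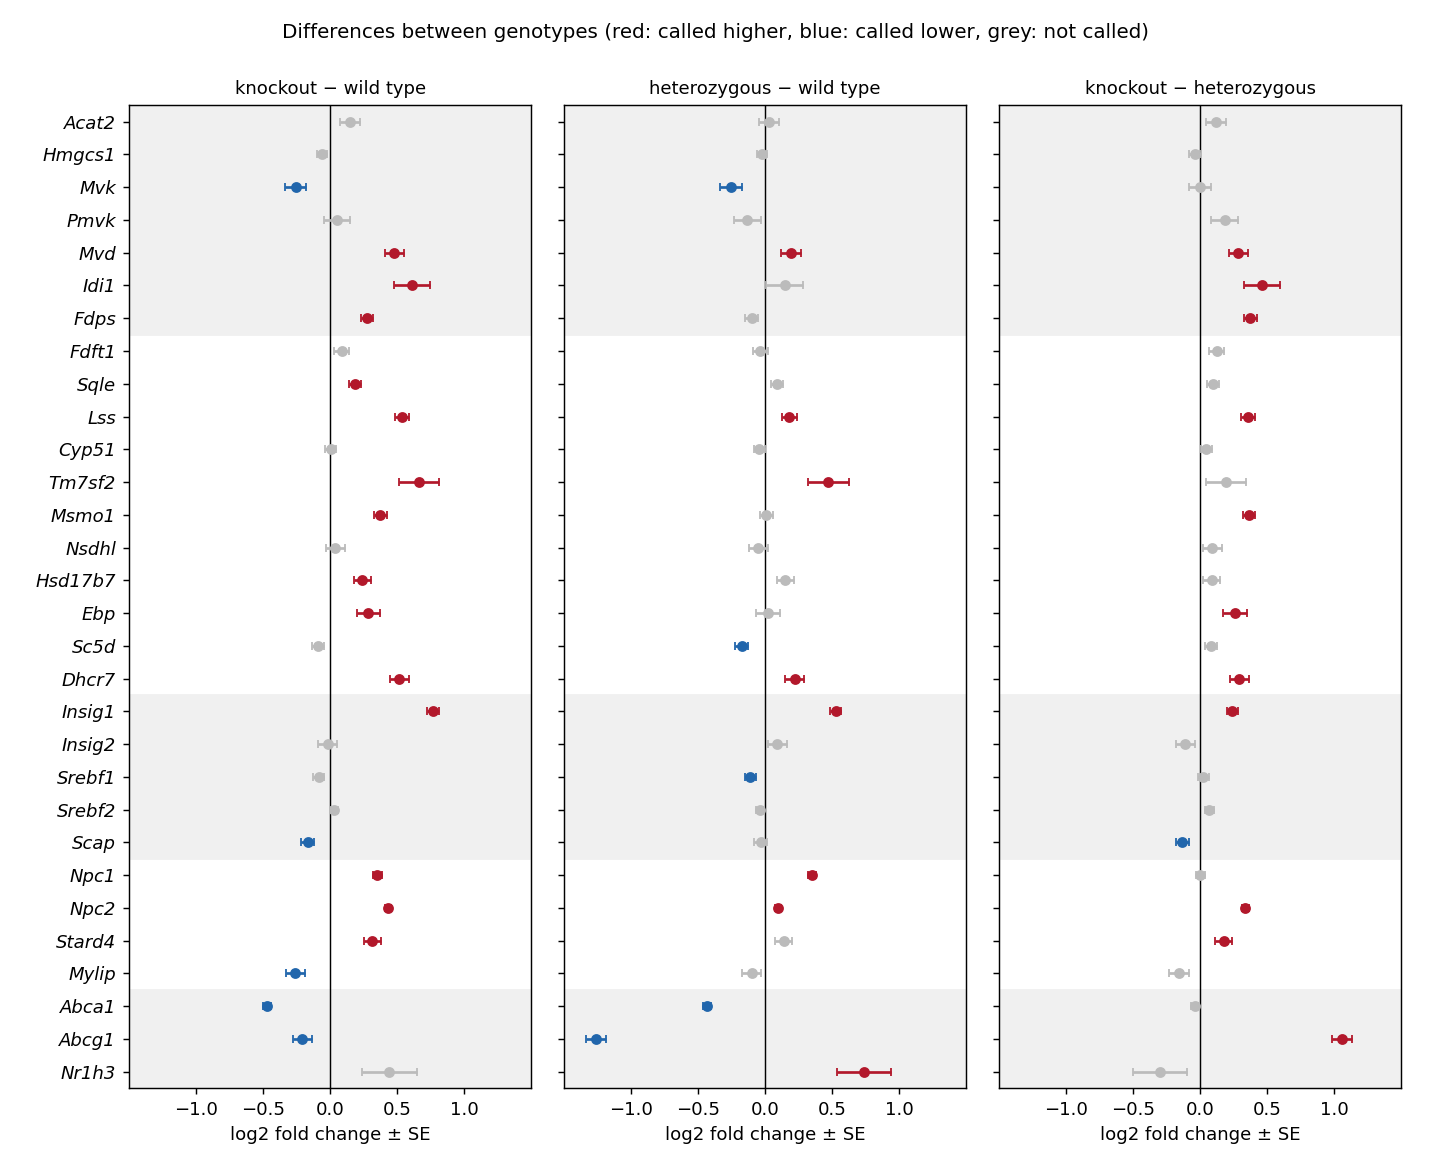
Log2 fold change with its SE for each of the 30 genes in the 3 comparisons, coloured by the edgeR call at an adjusted p of 0.05. The left panel has 14 red and 5 blue points, the middle 8 and 5, and the right 11 and 1, and Abcg1 is the farthest point from 0 in the middle and right panels.

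The genes that control SREBP differed from each other. Insig1, which encodes an SREBP-2 target and sterol-dependent brake, had the largest rise of the 30 genes in knockout. It had 90.8 and 88.1 CPM in wild type, 124 and 133 in heterozygous, and 152 and 152 in knockout. No genotype overlapped another, at 1.70-fold above wild type in knockout (log2 0.77 ± 0.04, SE; edgeR, adjusted p = 6.4e-19), 1.44-fold in heterozygous (adjusted p = 2.08e-13) and 1.18-fold between knockout and heterozygous (adjusted p = 1.12e-05). Insig2, its paralog, which is not known as an SREBP target in most cells, lay between 40.1 and 46.3 CPM over all libraries and passed no comparison (log2 -0.02 ± 0.07 in knockout against wild type, adjusted p = 0.871).

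The mRNAs of the SREBP precursors differed little between genotypes. Srebf2, which encodes SREBP-2, had 276 and 278 CPM in wild type, 268 and 271 in heterozygous, and 278 and 288 in knockout, and passed no comparison. With library totals alone it passed in heterozygous against wild type (log2 -0.080, adjusted p = 0.0348) and in knockout against heterozygous (0.13, adjusted p = 0.000479), the latter also without knockout library 1 (0.094, adjusted p = 0.0486). Srebf1, which encodes the SREBP-1 forms that favour fatty acid synthesis, had 154 and 151 CPM in wild type, 138 and 144 in heterozygous and 143 and 144 in knockout. Both mutant genotypes lay below wild type, with a call in heterozygous (log2 -0.11 ± 0.04, SE; edgeR, adjusted p = 0.0257) that ended without wild-type library 1 or heterozygous library 1 (log2 -0.092 and -0.076, adjusted p = 0.162 and 0.231), and none in knockout (adjusted p = 0.0875). Scap, the escort, had 98.6 and 99.6 CPM in wild type, 98.1 and 95.7 in heterozygous, and 91.2 and 85.4 in knockout. It fell in knockout by 0.17 on the log2 scale against wild type (adjusted p = 0.00449; -0.12 and 0.117 without knockout library 2) and by 0.13 against heterozygous (adjusted p = 0.0261). The latter was -0.12 without heterozygous library 1 (adjusted p = 0.119) and -0.087 without knockout library 2 (0.287).

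Promoters are shown for genes with the order wild type, heterozygous, knockout (Insig1, Lss, Mvd, Npc2, Dhcr7), for Hmgcs1, which held an exact sterol element and passed no test, and for Abca1, which fell. This selection was made after their values were seen. The bases are those upstream of the outermost RefSeq start on GRCm38.p6, written 5′ to 3′ on the strand of the gene. Capitals mark the sterol element TCACNCCAC, the CCAAT box bound by NF-Y and the E-box CACGTG, on either strand, so that a CCAAT box on the other strand reads ATTGG. The printed window of Dhcr7 holds none of the 3.
Insig1, chr5:28071192-28071411, plus strand: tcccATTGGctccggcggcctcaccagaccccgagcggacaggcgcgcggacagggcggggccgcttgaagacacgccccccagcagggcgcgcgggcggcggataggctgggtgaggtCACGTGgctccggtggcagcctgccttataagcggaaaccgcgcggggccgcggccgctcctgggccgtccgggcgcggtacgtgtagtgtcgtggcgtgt
Lss, chr10:76531385-76531564, plus strand: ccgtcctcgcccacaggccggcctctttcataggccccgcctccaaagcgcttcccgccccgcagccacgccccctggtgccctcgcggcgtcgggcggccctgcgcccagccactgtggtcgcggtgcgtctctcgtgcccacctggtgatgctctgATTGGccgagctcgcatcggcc
Mvd, chr8:122443423-122443642, minus strand: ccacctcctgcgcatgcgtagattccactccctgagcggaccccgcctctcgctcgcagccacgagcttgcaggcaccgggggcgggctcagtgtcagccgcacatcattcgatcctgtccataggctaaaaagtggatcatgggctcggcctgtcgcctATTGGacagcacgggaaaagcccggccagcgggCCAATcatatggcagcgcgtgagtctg
Npc2, chr12:84773113-84773332, minus strand: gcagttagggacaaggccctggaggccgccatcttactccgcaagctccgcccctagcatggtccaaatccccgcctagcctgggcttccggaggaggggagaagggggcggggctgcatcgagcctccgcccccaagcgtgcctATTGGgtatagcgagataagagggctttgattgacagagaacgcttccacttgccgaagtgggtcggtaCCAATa
Dhcr7, chr7:143822947-143823166, plus strand: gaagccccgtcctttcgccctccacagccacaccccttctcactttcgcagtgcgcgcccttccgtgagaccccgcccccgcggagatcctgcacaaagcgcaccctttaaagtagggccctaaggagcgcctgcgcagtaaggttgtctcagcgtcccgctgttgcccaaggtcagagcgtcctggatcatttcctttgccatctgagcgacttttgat
Hmgcs1, chr13:119690131-119690350, plus strand: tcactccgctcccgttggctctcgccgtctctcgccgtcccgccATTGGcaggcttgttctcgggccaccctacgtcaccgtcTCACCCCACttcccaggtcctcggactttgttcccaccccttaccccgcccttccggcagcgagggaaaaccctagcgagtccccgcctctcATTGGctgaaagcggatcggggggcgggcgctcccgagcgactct
Abca1, chr4:53159989-53160115, minus strand: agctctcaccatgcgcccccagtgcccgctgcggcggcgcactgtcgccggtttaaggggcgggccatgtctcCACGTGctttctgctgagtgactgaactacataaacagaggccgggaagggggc

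RefSeq promoter entries were matched by symbol for 24 of the 30 genes (33 entries), and the 250 bases upstream of each start were searched for exact letters on both strands. The CCAAT box occurred upstream of at least 1 start in 20 of these 24 genes (83.3%), beside 39.8% of the 11120 tested genes with an entry. Acat2, Scap, Abca1 and Nr1h3 had no exact CCAAT in these windows. The GC box GGGCGG occurred in 22 of 24 (91.7%, beside 61.4%) and the E-box in 6 of 24 (25%, beside 9.61%). The sterol element occurred in 1 of 24 (4.17%, beside 1.28%), in Hmgcs1, and 2 copies of AGGTCA in the same orientation with 4 bases between them, the LXR repeat, in 0 of 24 (beside 0.00899%). Over all 32851 entries of the table, whatever the gene, the share was 33.8% for the CCAAT box, 32.7% for the GC box, 6.02% for the E-box, 1.05% for the sterol element and 0.0152% for the repeat. These are matches of letters in a short window and describe no binding.

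Lysosomal export and sterol transport genes were higher in knockout. Npc2, the soluble lysosomal sterol carrier, had 474 and 469 CPM in wild type, 503 and 506 in heterozygous, and 636 and 637 in knockout. Its genotypes did not overlap, and it rose 1.35-fold in knockout against wild type (log2 0.43 ± 0.02, SE; edgeR, adjusted p = 9.36e-19), 1.26-fold against heterozygous (adjusted p = 4.58e-15) and 1.07-fold in heterozygous against wild type (log2 0.10, adjusted p = 0.0018; 0.055 and 0.0737 with library totals alone). Npc1, its membrane partner, had 202 and 204 CPM in wild type, 255 and 263 in heterozygous, and 259 and 259.9 in knockout. Both mutant genotypes were 1.28-fold above wild type (adjusted p = 2.16e-12 in knockout and 3.4e-12 in heterozygous), with a difference between them of 0.0016 ± 0.03 log2.

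Stard4, a cytosolic carrier of sterols and an SREBP-2 target, had 53.8 and 58.1 CPM in wild type, 62.5 and 60.8 in heterozygous, and 64.1 and 75.0 in knockout. It was 1.24-fold higher in knockout than in wild type (log2 0.31 ± 0.06, SE; edgeR, adjusted p = 6.93e-05). Its call in knockout against heterozygous (log2 0.18, adjusted p = 0.0255) ended without knockout library 2 (0.057, adjusted p = 0.624). It also missed the threshold with DESeq2 (0.17, adjusted p = 0.0638) and without heterozygous library 1 or 2 (0.19 and 0.16, adjusted p = 0.0653 and 0.135). In heterozygous against wild type it was not called (0.14, adjusted p = 0.0846; 0.20 and 0.0299 without wild-type library 2). Npc1 (12189694 to 12236506) and Stard4 (33199138 to 33213862) lie on chromosome 18 of GRCm38, which also carries Chsy3. Mylip, the ligase raised by LXR, had 49.97 and 42.8 CPM in wild type, 44.4 and 42.2 in heterozygous, and 38.0 and 39.5 in knockout. Knockout lay below both other genotypes, but its difference from heterozygous was not called (log2 -0.16 ± 0.07, edgeR, adjusted p = 0.0874). Nor was heterozygous against wild type (-0.10 ± 0.07, adjusted p = 0.288). Knockout against wild type had a fall of -0.26 ± 0.07 log2 (adjusted p = 0.00334). Without wild-type library 1 the value was -0.14 (adjusted p = 0.221).

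The efflux pumps were lower in both mutant genotypes, and to different degrees. Abca1 had 361 and 359 CPM in wild type, 267 and 268 in heterozygous, and 264 and 257 in knockout. It fell by 0.47 on the log2 scale in knockout (SE 0.03; edgeR, adjusted p = 3.49e-17) and by 0.43 in heterozygous (SE 0.03; adjusted p = 7e-16), and the mutant genotypes did not differ past the threshold (adjusted p = 0.373). Abcg1 had 63.9 and 62.3 CPM in wild type, 29.3 and 23.4 in heterozygous, and 54.7 and 54.7 in knockout. Heterozygous lay 2.40-fold below wild type (log2 -1.26 ± 0.07, adjusted p = 2.75e-18), the largest difference of the 30 genes in any comparison, and knockout exceeded heterozygous by 1.06 ± 0.08 log2 (adjusted p = 1.39e-15). The smaller fall of Abcg1 in knockout (log2 -0.21 ± 0.07, adjusted p = 0.015) kept its size without wild-type library 1 or knockout library 1 or 2 (-0.19, -0.21 and -0.21) but missed the threshold there (adjusted p = 0.0612, 0.0759 and 0.0754).

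Nr1h3, which encodes the receptor LXR alpha that raises both pumps, was expressed at a low level. It had 3.64 and 3.91 CPM in wild type, 5.58 and 7.01 in heterozygous, and 4.79 and 5.45 in knockout. It rose 1.67-fold in heterozygous (log2 0.74 ± 0.20, SE; edgeR, adjusted p = 0.00312; 0.56 and 0.0898 without heterozygous library 2) and was not called in knockout (log2 0.44 ± 0.20, adjusted p = 0.0889). Of 19 tested macrophage markers, 13 were higher and 1 lower in knockout against wild type, and 9 higher and 4 lower in heterozygous against wild type, with Aif1 at 0 counts in every library. These shares were 68.4% and 5.26%, and 47.4% and 21.1%, beside 19.2% and 18.9%, and 19.2% and 19.7%, of all genes. The part of these markers in the changes of the pumps and of Npc2 was not tested, and in bulk RNA fewer cells of a type and less RNA per cell cannot be told apart.

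**Figure D3:**
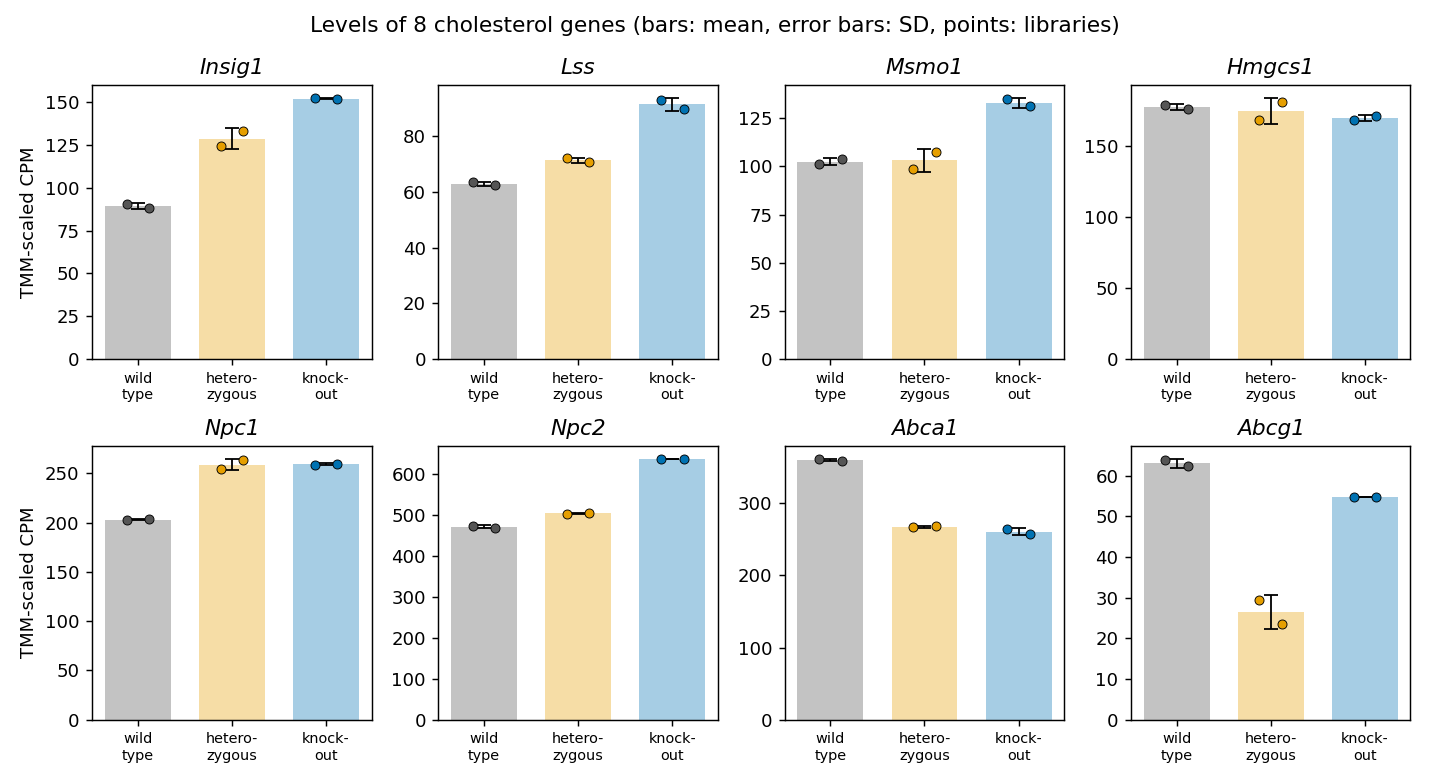
TMM-scaled CPM of 8 genes by genotype, with bars for the mean of 2 libraries, error bars for the SD and points for libraries. Insig1, Lss and Npc2 climb from wild type over heterozygous to knockout, Msmo1 is higher in knockout, Npc1 and Abca1 separate wild type from both mutants, Abcg1 is lowest in heterozygous (29.3 and 23.4 CPM) and Hmgcs1 lies between 168 and 181 CPM.

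Other marker lists also differed between genotypes. For scale, the shares of all tested genes called higher and lower were 19.2% and 18.9% in knockout against wild type. They were 19.2% and 19.7% in heterozygous against wild type, and 19.1% and 17.9% in knockout against heterozygous. The 8 markers of proliferating cells were all lower in heterozygous than in wild type and all higher in knockout than in heterozygous. In knockout against wild type 3 (37.5%) were higher and 0 lower. The summed level of the 8 was 953 and 975.3 CPM in wild type, 743 and 751 in heterozygous, and 1078 and 1086 in knockout. Adipocyte markers rose in knockout in 9 of 9 tested (100%), and 8 of 9 (88.9%) were called higher in heterozygous. Their sum went from 224 and 223 CPM in wild type to 403 and 409.6 in heterozygous and 532 and 529 in knockout. It was carried mostly by Lpl, with mean CPM of 149, 272 and 376, and Cebpa, with 40.8, 72.8 and 74.7. Adipoq, Plin1 and Cfd had at most 2.25 CPM in a library. Lep had 0 counts in every library, and Retn and Cidec were also removed by the filter. Of 10 fibroblast markers 3 were higher (Dcn, Lum, Pdgfra) and 7 lower in knockout against wild type, or 30% and 70%. In heterozygous 9 were higher and 1 lower (90% and 10%), and all 10 were lower in knockout than in heterozygous. Their sum, carried mostly by Fn1, Col1a1 and Col1a2, was 37869 and 38477 CPM in wild type, 45723 and 44517 in heterozygous, and 23603 and 23480 in knockout. The smooth muscle list (myofibroblasts included) had 5 of 6 genes (83.3%) lower than wild type in each mutant genotype, Myh11 being the exception. The sum of this list went from 4266 and 4197 CPM in wild type to 3028 and 3062 in heterozygous and 2597 and 2561 in knockout. Schwann cell and neuron markers summed to at most 20.4 CPM in a library and endothelial markers to at most 21.5. Of 7 lymphocyte and neutrophil markers none passed the filter. The part of all these markers in the differences of the sterol genes was not tested.

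Levels per kilobase of exon allow a rough comparison of different genes. The length was the union of annotated exons, so the order depends on the annotation. Npc2 led in all genotypes, with 143 ± 1.07 CPM per kb (SD, n = 2) in the wild type libraries and 193 ± 0.221 in those of knockout. Fdps followed with 64.3 ± 0.112 in wild type and 77.7 ± 2.99 in knockout. In the GENCODE annotation Fdps shares 1124 exon bases (26.71% of its exons) with Gm43738 on the same strand, which had no row of counts, so its level is less certain. Hmgcs1 and Msmo1 did not differ beyond their spread in wild type (51.0 ± 0.626 and 50.2 ± 0.846 CPM per kb), and in knockout Msmo1 stood above Hmgcs1 (65.1 ± 1.25 and 48.9 ± 0.585). Insig1 held place 11 of the 30 in wild type, at 33.2 ± 0.704 CPM per kb, and place 4 in knockout, at 56.4 ± 0.13. Cyp51, Abca1 and Srebf1 had neighbouring levels in wild type (34.6 ± 1.71, 35.1 ± 0.173 and 35.4 ± 0.555) that did not differ beyond the spread of Cyp51. The lowest in wild type were Tm7sf2 at 4.16 ± 0.0824, Idi1 at 2.90 ± 0.0319 and Nr1h3 at 1.76 ± 0.0886 CPM per kb.

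**Figure D4:**
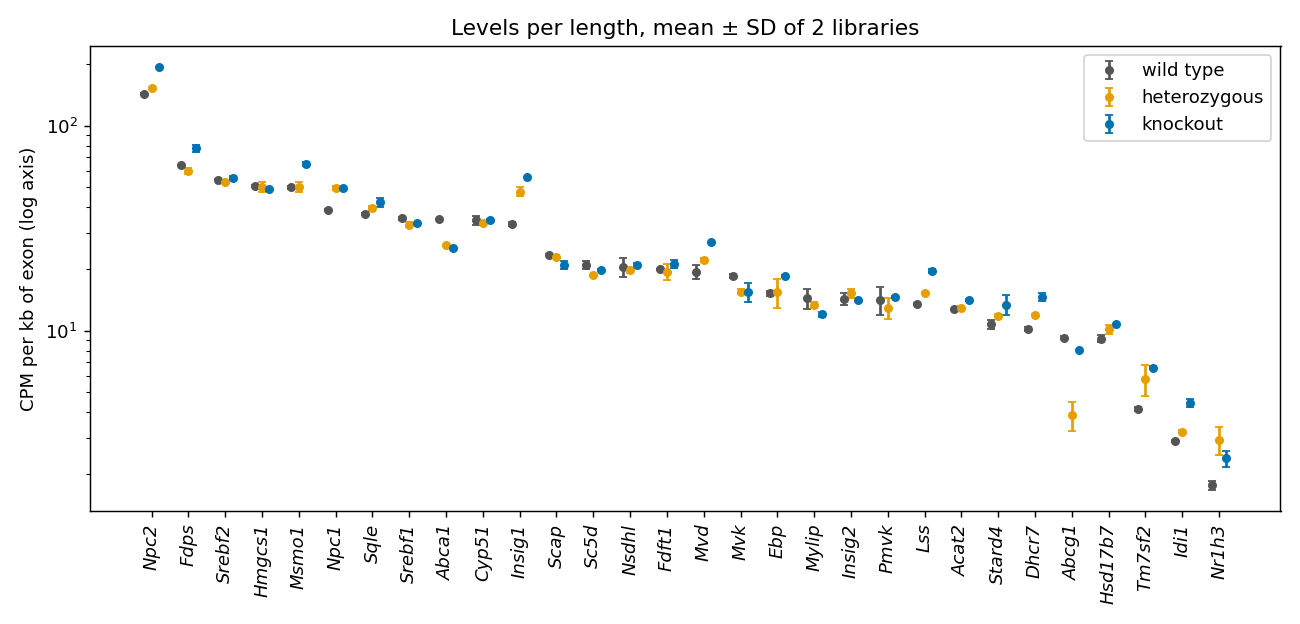
Mean CPM per kilobase of exon with SD of 2 libraries on a log axis, for the 30 genes ordered by their wild-type level. Npc2 is highest (143 CPM per kb in wild type) and Nr1h3 lowest (1.76), and the distance between genotypes is wide for Insig1 and Abcg1 and narrow for Srebf2 and Cyp51.

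Beyond the 30 genes, lists of related genes were counted in the same way. Over all tested genes the calls were 19.2% higher and 18.9% lower in knockout against wild type, 19.2% and 19.7% in heterozygous against wild type, and 19.1% and 17.9% in knockout against heterozygous. Of 6 tested partners of sterol synthesis (Faxdc2 had no row in the table), 3 were higher and 1 lower in knockout against wild type, 3 and 1 in heterozygous against wild type, and 4 and 1 in knockout against heterozygous. Por, the reductase that feeds electrons to Cyp51 and Sqle, rose by 0.44 ± 0.04 log2 in knockout and 0.16 ± 0.04 in heterozygous (SE; edgeR, adjusted p = 9.99e-14 and 0.000462), and Cyb5a and Cyb5b, cytochromes b5, rose in knockout by 0.58 ± 0.05 and 0.41 ± 0.04. The reductase of cytochrome b5, Cyb5r3, was at -0.12 ± 0.03 in knockout and 0.26 ± 0.03 in heterozygous. The isoprenoid branch, which uses farnesyl diphosphate for prenylation, dolichol and ubiquinone, had 2 of 13 higher and 3 lower in knockout, with Ggps1 at -0.37 ± 0.08 and the farnesyltransferase subunit Fnta at -0.24 ± 0.06, and 0 higher and 3 lower in heterozygous, among them Zmpste24 at -0.20 ± 0.05 and Rabggtb at -0.29 ± 0.08. In knockout against heterozygous this list had 2 of each. Its shares in knockout, 15.4% higher and 23.1% lower, were near those of all genes. Proteases and ligases of SREBP cleavage and sterol-regulated degradation followed. In knockout 0 of 9 were higher and 1, the ligase Rnf145, lower (log2 -0.27 ± 0.05). In heterozygous 2 were higher, the proteases Mbtps1 and Mbtps2 (0.18 ± 0.04 and 0.26 ± 0.08), and in knockout against heterozygous 0 were higher and 2 lower.

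Genes of the fatty acid arm differed in both directions. Of 17 tested genes of fatty acid and triglyceride synthesis 5 were higher and 6 lower in knockout, 4 and 6 in heterozygous, and 5 and 6 in knockout against heterozygous, and Thrsp and Pnpla3 were removed by the filter. In knockout this was 29.4% higher and 35.3% lower, beside 19.2% and 18.9% of all tested genes, and in heterozygous 23.5% and 35.3%, beside 19.2% and 19.7%. The desaturases Scd2 and Scd1 fell in knockout by 0.75 and 0.56 on the log2 scale (SE 0.02 and 0.03; edgeR, adjusted p = 9.21e-28 and 5.73e-18) and in heterozygous by 0.57 and 0.29. Me1, which supplies NADPH, fell by 0.97 in knockout and 0.38 in heterozygous. Fads2 fell by 0.57 in heterozygous (adjusted p = 1.77e-14) and was at -0.10 ± 0.04 in knockout (adjusted p = 0.065).

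Of 13 genes of cholesterol handling inside the cell, 7 were higher and 1 lower in knockout, 4 and 2 in heterozygous, and 7 and 2 in knockout against heterozygous. The knockout shares were 53.8% and 7.69%, beside 19.2% and 18.9% of all tested genes, and those in heterozygous were 30.8% and 15.4%, beside 19.2% and 19.7%. Lipa, the acid lipase that frees cholesterol from esters in the lysosome, rose by 0.84 ± 0.03 log2 in knockout and 0.60 ± 0.03 in heterozygous (SE; edgeR, adjusted p = 7.06e-27 and 1.84e-21). Nceh1, a neutral ester hydrolase, rose by 0.81 ± 0.03 and 0.28 ± 0.04, and Soat1, which makes the esters, by 0.30 ± 0.04 in knockout (adjusted p = 9.01e-09). Cav1, the protein of cholesterol-rich caveolae, was the member that fell in knockout, by 0.81 on the log2 scale. The rise of Lipa, the lysosomal enzyme among these, stands beside those of Npc1 and Npc2. Like them, it stands beside the macrophage markers, of which 68.4% were higher and 5.26% lower in knockout. The part of these markers was not tested.

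Receptors and LXR genes were mixed. Of 8 tested lipoprotein and scavenger receptors 4 were higher and 1 lower in each comparison with wild type, and 4 and 2 in knockout against heterozygous, and Olr1 was removed by the filter. These are 50% and 12.5% in both comparisons with wild type, beside 19.2% and 18.9% of all genes in knockout and 19.2% and 19.7% in heterozygous. The scavenger receptors Cd36 and Msr1 rose in knockout by 1.38 ± 0.08 and 0.53 ± 0.03 log2, and in heterozygous by 1.03 ± 0.08 and 0.22 ± 0.03 (SE; edgeR, adjusted p at most 1.87e-07). Vldlr fell in knockout by 0.59 on the log2 scale, and Lrp1 rose in heterozygous alone among the comparisons with wild type (0.37 ± 0.02). Of 8 tested LXR partners and other LXR targets 4 were higher and 2 lower in knockout, 6 and 2 in heterozygous, and 2 and 2 in knockout against heterozygous, and Abcg5, Abcg8 and Rxrb were removed by the filter. Their shares were 50% and 25% in knockout and 75% and 25% in heterozygous, beside 19.2% and 18.9%, and 19.2% and 19.7%, of all genes. Pltp and Smpdl3a of this list rose in both mutant genotypes, by 0.34 ± 0.03 and 0.81 ± 0.04 in knockout and 0.46 ± 0.03 and 0.56 ± 0.04 in heterozygous. Pltp is an LXR target like Abca1 and Abcg1. Whether Smpdl3a answers to LXR in these mouse cells was not tested. Arl4c fell in heterozygous by 0.45, and was at -0.01 ± 0.04 in knockout, and Rxra, which encodes the partner receptor, was at -0.24 ± 0.05 and 0.20 ± 0.04.

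Enzymes that make or break down oxysterols, the ligands of LXR, had 3 of 7 higher and 1 lower in knockout, 4 and 1 in heterozygous, and 1 and 1 in knockout against heterozygous. The shares were 42.9% and 14.3%, 57.1% and 14.3%, and 14.3% and 14.3%, beside 19.2% and 18.9%, 19.2% and 19.7%, and 19.1% and 17.9% of all genes. Ch25h, which makes 25-hydroxycholesterol, fell by 0.30 on the log2 scale in knockout and 0.32 in heterozygous (SE 0.05 for both; edgeR, adjusted p = 1.11e-06 and 3e-07). Cyp7b1, which breaks it down, rose by 0.65 ± 0.19 in knockout and 1.51 ± 0.19 in heterozygous (adjusted p = 0.00584 and 7.3e-09), and Hsd3b7, which acts after it, by 0.59 ± 0.07 and 0.34 ± 0.07.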

How the data were processed

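Raw counts per gene symbol were deposited by the authors for 6 libraries, 2 per genotype, as judged from whole numbers with unequal column totals. Per the submitters' processing notes, reads were handled with HISAT2 2.0.4 and build GRCm38. How reads were assigned to genes, with which annotation and whether by strand, is not stated there. Columns were assigned by library title. The 0 entries naming no gene needed no removal.

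The test was edgeR 4.0.16 (R 4.3.3) with TMM factors, the default filter by genotype (Chsy3 kept), and 1 robust quasi-likelihood fit over all 6 libraries with 3 residual degrees of freedom. P-values are two-sided and Benjamini-Hochberg adjusted over 16061 genes, with a threshold of 0.05. The SE is the log2 fold change divided by the square root of F. The procedure was tested on simulated counts. The members and gene lists were chosen with earlier results of these data known. Genes named are all 30 members, and for each related list at most 4 with the smallest p-values, with Nr1h2 in addition. Alternatives were RLE factors, library totals alone, DESeq2 version 1.42.0, no filter, a stricter filter (1 CPM in every library of at least 1 genotype), only the 4 libraries compared, a replicate block, and leaving out each library. Levels per kilobase used the exon union of the GENCODE M21 basic set. Exon overlaps came from the full set. Gene positions and promoters came from RefSeq (GRCm38.p6). The 2 libraries of each genotype differed by more than counting noise (chi-square per gene 3.62 to 3.76), so they were not treated as copies of 1 library. This does not show that they came from separate cultures or mice.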

Additional observations from a re-analysis of the deposited data

How the results depend on the processing

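Of the calls among the 30 genes, 14 of 19 held under all 13 alternatives in knockout against wild type, 5 of 13 in heterozygous against wild type and 8 of 12 in knockout against heterozygous. Scaling by library totals alone called 17 genes higher and 0 lower in knockout against heterozygous, and over all genes 4126 higher and 2256 lower there, and 2628 and 3762 in heterozygous against wild type. In heterozygous against wild type it called 6 of the 30 genes higher and 7 lower, in place of 8 and 5. It moved the median of all genes by at most 0.0641. Among the genes it added in knockout against heterozygous were Sqle and Sc5d (log2 0.16 and 0.15, edgeR, adjusted p = 0.00432 and 0.0126). Genes not called in the report passed under at least 1 alternative in 0, 6 and 6 cases in the 3 comparisons (knockout against wild type, heterozygous against wild type, knockout against heterozygous). Leaving out each library in turn gave 3 to 5 genes lower in knockout against wild type, 5 to 8 higher in heterozygous against wild type and 0 to 1 lower in knockout against heterozygous. With a single library left in a genotype, that library is assumed to vary like the others. In heterozygous against wild type, library totals alone also ended the calls of Mvd (adjusted p = 0.0992, edgeR) and Npc2 (0.0737), and in knockout against heterozygous that of Scap (0.269).

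Some log2 fold changes that passed no test changed sign. With library totals alone they were 0.0046 for Insig2 (knockout against wild type), -0.011 for Acat2, -0.031 for Msmo1 and -0.017 for Ebp (heterozygous against wild type), and 0.023 for Hmgcs1, 0.063 for Mvk and 0.027 for Abca1 (knockout against heterozygous). In knockout against heterozygous Mvk was at 0.0017 with no filter, and Npc1 at -0.00796 with RLE factors, -0.00711 with DESeq2 and -0.011 with only the 4 libraries compared. Over the fits that leave out 1 library, values ran from -0.10 to 0.22 for Pmvk, -0.046 to 0.056 for Cyp51, -0.065 to 0.15 for Nsdhl and -0.085 to 0.0505 for Insig2 in knockout against wild type. In heterozygous against wild type they ran from -0.078 to 0.035 for Hmgcs1, -0.28 to 0.038 for Pmvk, -0.13 to 0.057 for Fdft1, -0.091 to 0.0089 for Cyp51, -0.054 to 0.072 for Msmo1, -0.15 to 0.059 for Nsdhl, -0.15 to 0.18 for Ebp and -0.21 to 0.015 for Mylip. In knockout against heterozygous they ran from -0.10 to 0.015 for Hmgcs1, -0.11 to 0.10 for Mvk, -0.0091 to 0.054 for Srebf1 and -0.027 to 0.026 for Npc1. The cause was not tested.

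Replicate numbers are shared between genotypes, and the labels do not say whether they pair libraries. Same-numbered libraries did not deviate together (correlation -0.0246, 0.00922 and 0.0222 for the 3 pairs of genotypes). Because the spread within a genotype may be technical, this cannot exclude a shared culture day or batch. A replicate block called 14 genes higher and 5 lower in knockout against wild type, 8 and 5 in heterozygous against wild type and 11 and 1 in knockout against heterozygous, the same numbers as without it. Over all genes it called 3077 and 3003, 3062 and 3160, and 3059 and 2854. With 2 libraries per genotype the precision is limited most for genes at low level, such as Nr1h3, Tm7sf2 and Idi1.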
